A study of Mus musculus with 5 samples.

Results

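Adipogenic regulators and Retn are 10 genes of fat cell formation, the transcription factors Cebpb, Cebpd, Pparg, Cebpa, Klf15, Zfp423, Ebf2 and Prdm16, the coactivator Ppargc1a and the secreted product Retn. They were chosen by name, and all 10 were found among the 55536 genes of the GENCODE vM21 annotation of GRCm38, 22028 of which are protein-coding. The data are lists of H3K27me3 peaks from chromatin immunoprecipitation and sequencing of cultured dermal fibroblasts of wild-type mouse skin, with 2 libraries at the stage labelled E14 and 2 at the stage labelled E17. The paper names these stages E14.5 and E18.5, and the labels' names are kept below. All 4 libraries share the wild-type genotype and the same antibody, and the only labelled difference is the stage. The methods give a C57BL/6 background for the mice of the study, and the sex and number of embryos behind each library are not given in the sources used here. No label says that the 2 libraries of a stage came from separate embryos. The SDs below thus measure only the spread between these libraries, which may be technical. The p-values below come from permuting the libraries between the stages, so they too concern only these libraries. The cells were grown in culture before fixation, so the peaks are those of cultured fibroblasts. The labels describe DMEM with serum and sonication of the chromatin, where the methods describe AmnioMAX medium and enzymatic digestion. An input library is labelled too and was not analysed here.

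H3K27me3 is trimethylation of lysine 27 of histone H3. Polycomb repressive complex 2 places the mark, Kdm6a and Kdm6b remove it, and it typically covers the promoters of silent developmental genes, often those rich in CG dinucleotides. In adipogenesis, Cebpb and Cebpd respond early to adipogenic stimuli and induce Pparg and Cebpa, which then maintain each other and switch on adipocyte genes. Zfp423 and Ebf2 act in the commitment of preadipocytes, Prdm16 and Ppargc1a belong to the brown and beige fat program, and dermal adipocytes arise from fibroblast precursors of the lower dermis. The comparison of the stages asks where the mark lies at these genes before and after dermal fibroblast differentiation.

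The promoter sequences of 5 members are shown because the mark separated these genes into different patterns. Each is the stretch of 250 bases before a start site, read 5′ to 3′ along the gene, from the RefSeq promoter table of GRCm38.p6, in which 8 of the 10 members were found. Ebf2 and Cebpd were not matched. The most upstream Pparg start in this table is at 115361144, so the GENCODE start at 115360951 lies inside the stretch printed for it. Capitals mark each CG, a motif that reads the same on both strands.
Pparg, most upstream start (chr6:115360894-115361143, plus strand): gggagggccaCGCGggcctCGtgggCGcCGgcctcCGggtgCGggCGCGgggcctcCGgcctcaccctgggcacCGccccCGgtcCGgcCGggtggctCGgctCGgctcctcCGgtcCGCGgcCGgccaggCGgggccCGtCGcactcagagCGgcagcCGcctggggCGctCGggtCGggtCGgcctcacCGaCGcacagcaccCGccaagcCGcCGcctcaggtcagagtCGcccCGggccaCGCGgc
Pparg, internal start (chr6:115421816-115422065, plus strand): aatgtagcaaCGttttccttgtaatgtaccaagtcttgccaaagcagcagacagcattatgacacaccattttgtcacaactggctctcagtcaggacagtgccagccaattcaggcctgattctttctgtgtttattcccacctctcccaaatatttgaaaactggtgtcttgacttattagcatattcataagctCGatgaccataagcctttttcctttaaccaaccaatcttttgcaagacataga
Cebpa (chr7:35119043-35119292, plus strand): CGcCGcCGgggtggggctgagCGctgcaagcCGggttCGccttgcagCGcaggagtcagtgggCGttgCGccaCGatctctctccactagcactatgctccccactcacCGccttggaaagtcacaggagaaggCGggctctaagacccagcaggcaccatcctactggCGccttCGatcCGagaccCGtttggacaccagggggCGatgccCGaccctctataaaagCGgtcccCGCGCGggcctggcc
Klf15 (chr6:90462326-90462575, plus strand): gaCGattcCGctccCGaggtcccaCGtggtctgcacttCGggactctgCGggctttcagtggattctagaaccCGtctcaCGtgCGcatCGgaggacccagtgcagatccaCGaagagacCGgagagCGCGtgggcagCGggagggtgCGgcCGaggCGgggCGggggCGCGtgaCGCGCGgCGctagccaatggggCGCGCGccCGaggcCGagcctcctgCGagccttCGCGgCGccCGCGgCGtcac
Cebpb (chr2:167688665-167688914, plus strand): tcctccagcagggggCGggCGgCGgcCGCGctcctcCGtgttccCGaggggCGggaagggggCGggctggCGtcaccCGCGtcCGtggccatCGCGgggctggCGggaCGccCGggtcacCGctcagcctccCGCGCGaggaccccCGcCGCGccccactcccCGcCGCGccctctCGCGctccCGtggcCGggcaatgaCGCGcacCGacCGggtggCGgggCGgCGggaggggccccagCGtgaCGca
Retn (chr8:3655520-3655769, plus strand): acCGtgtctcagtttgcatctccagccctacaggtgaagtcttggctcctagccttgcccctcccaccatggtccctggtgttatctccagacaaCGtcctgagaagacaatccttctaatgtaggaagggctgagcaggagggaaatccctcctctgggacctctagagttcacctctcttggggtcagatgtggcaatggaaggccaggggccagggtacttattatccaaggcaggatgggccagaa

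The upstream Pparg promoter holds 38 CG, and 1.88% of the 32817 promoters in the table hold at least as many. The internal Pparg promoter, which serves the adipocyte-enriched Pparg2 form, holds 2 CG, like that of Retn, and 81.2% of promoters hold at least that number. The promoters of Cebpa, Klf15 and Cebpb hold 22, 37 and 41 CG, and 14.8%, 2.21% and 1.09% of promoters hold at least as many. CG content and peaks did not run in parallel among these genes. The Cebpb promoter, with the most CG of the 11 member promoters in the table, had no peak in any library, whereas the upstream Pparg promoter lay in a peak over 250 and 27 of its bases in the E14 libraries and over 0 in both E17 libraries. The Klf15 promoter was covered over all 250 bases in both E14 libraries and E17 replicate 1 and over 0 in E17 replicate 2. Over all promoters in the table, 3.52% of those with 0 to 4 CG lay in peaks of both E14 libraries, compared with 12.8% of those with 5 to 14, 11.9% of those with 15 to 24 and 9.45% of those with at least 25.

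The lists of the whole genome differed in length before any gene was considered. They held 21546 and 16574 peaks at E14 and 10429 and 7107 peaks at E17, covering 52.8, 32.1, 20.0 and 14.3 Mb. The methods name a common read depth to which some samples were brought, without saying which of these libraries it covers. Peak lists carry no counts of reads, so their depth is unknown here, and fewer peaks from a shallower library and less of the mark cannot be told apart. Of the 10 dermal fibroblast markers examined (Col1a1, Col1a2, Col3a1, Pdgfra, Twist2, Twist1, Prrx1, Dpt, Lum and Dcn), 0 had a peak in any library at 3000 bp or less from a start site. A peak was found in all 4 libraries at 2 of 6 keratinocyte markers (Cdh1 and Epcam), 2 of 5 endothelial, 0 of 4 immune, 2 of 5 melanocyte and glia, 2 of 4 muscle and 0 of 5 adipocyte markers. Among all protein-coding genes, 74.2% had no peak in any library and 12.0% had one in all 4, and the marker lists were not tested against these shares. A peak list gives no expression, so the labelled cell type was examined only through this mark.

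Members were scored by the peaks that overlap a window of 3000 bp either side of any annotated start site. By this rule 3 members, Pparg, Cebpa and Retn, had a peak in both E14 libraries and in neither E17 library. The same pattern held for 4.61% of all protein-coding genes and for 2.91% of all annotated genes. Klf15, Zfp423, Ebf2 and Prdm16 had a peak in all 4 libraries, as did 12.0% of protein-coding genes and 6.97% of all annotated genes. Klf15 left this group with a −log10 q of at least 3 or 5 and with peaks of at least 1000 bp, and Zfp423 left it with windows of 1000 bp. Cebpb and Cebpd had none in any library, like 74.2% of protein-coding genes, and Ppargc1a had one in E14 replicate 1 alone, like 4.35%. No member had a peak in both E17 libraries and neither E14 library, a pattern held by 0.0908% of protein-coding genes. Of the 7 members with a peak in both E14 libraries, 3 had none at E17, where the background over such protein-coding genes was 23.8%, and 4 had one in both E17 libraries, where it was 61.9%. The number of members is small and no test was made of these shares.

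**Figure D1:**
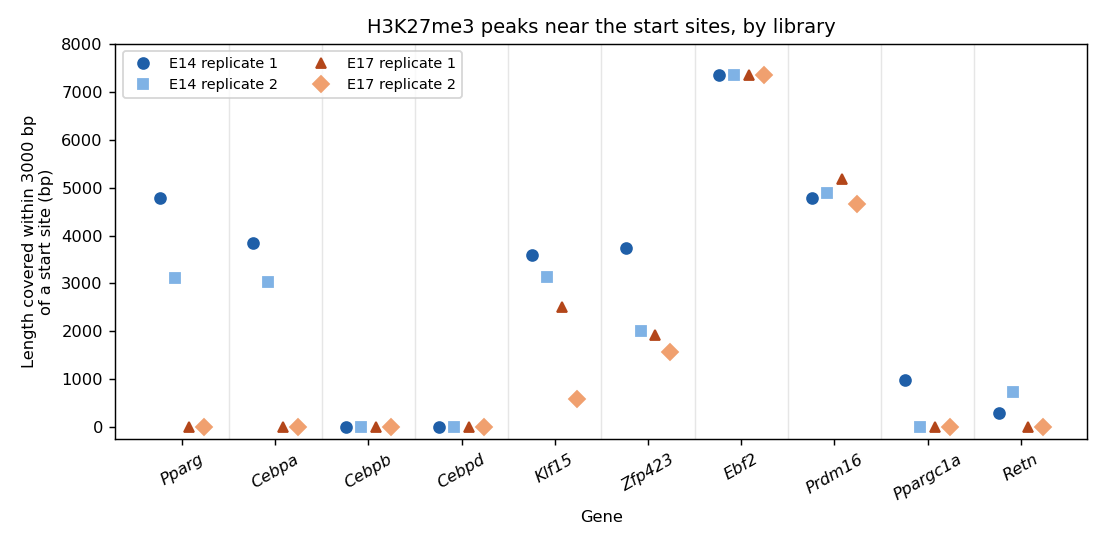
Length in bp covered by H3K27me3 peaks within 3000 bp of any start site (vertical axis) of each of the 10 members (horizontal axis), with 1 symbol per library, blue for E14 and orange for E17. Pparg, Cebpa and Retn lie above 0 in both E14 libraries and at 0 in both E17 libraries. Ppargc1a lies above 0 in E14 replicate 1 alone, Ebf2 is at 7353 bp in all 4 libraries and Prdm16 lies between 4653 and 5190 bp.

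The early inducers carried no peak. Cebpb (chr2:167688915-167690418, plus strand) and Cebpd (chr16:15887286-15891031, plus strand), both C/EBP family factors induced early in adipogenesis, had 0 bp covered near the start sites and in the gene body in all 4 libraries. The peak nearest to Cebpb lay 23617 bp from its start in E14 replicate 1, 151238 bp in E14 replicate 2, and 392561 and 392629 bp in the E17 libraries. At Cebpd, 1 peak of 677 bp lay upstream, 4176 bp from the start, in E14 replicate 1, at percentile 17.5 of that list by fold enrichment. Windows of 5000 bp take in this peak, so the absence at Cebpd holds for the narrower window.

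Pparg and Cebpa, the pair at the centre of the adipogenic program, were covered at E14 and not at E17. At Pparg (chr6:115360951-115490399, plus strand), the nuclear receptor required for fat cell formation, peaks covered 4792 and 3110 bp near the start sites at E14 and 0 and 0 bp at E17. At Cebpa (chr7:35119293-35121928, plus strand), the C/EBP factor that sustains Pparg expression, they covered 3848 and 3020 bp at E14 and 0 and 0 bp at E17. Both E14 libraries were above both E17 libraries at each gene, with means of 3951 ± 1189 bp and 3434 ± 585 bp (SD, n = 2). The E14 replicates shared 3110 bp at Pparg and 2982 bp at Cebpa, so the same stretch was called in both. At E17 the peak nearest to the most upstream Pparg start was 145408 and 219252 bp away, and that nearest to the most upstream Cebpa start was 63539 and 64605 bp away. These peaks were of high rank within their lists. The strongest peak stood at percentiles 90.0 and 96.7 of fold enrichment for Pparg and at 86.7 and 84.6 for Cebpa, where the percentile is the share of peaks of that library at or below the value.

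The background of genes without an E17 peak differed with rank. Among protein-coding genes with a peak in both E14 libraries, 77.9% of those with a mean percentile under 50 had none in either E17 library, beside 42.8% from 50 to 80, 8.39% from 80 to 90, 1.85% from 90 to 95 and 1.37% from 95 to 100. Cebpa, with a mean percentile of 85.7, falls in the class with 81 such genes of 966, and Pparg, with 93.4, in the class with 14 of 755. Retn, with 53.5, falls in the class with 482 of 1127. These shares are a description, since the genes were chosen with the pattern at Pparg and Cebpa known.

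The mark at Pparg lay over the cluster of starts at the upstream end of the gene and not over the starts deeper inside it. Of 7 annotated start sites, the most upstream, at 115360951, was inside a peak in E14 replicate 1, and in E14 replicate 2 it fell in a gap of 609 bp, 166 bp from the next peak. The starts at 115362292, 115362349 and 115362350 were inside a peak in both E14 libraries. The 250 bases before the start at 115362349, which hold 12 CG, were covered in full in both. Those before the RefSeq start at 115361144 were covered in full in replicate 1 alone. The starts at 115383699, 115422066 and 115439975 had no peak within 3000 bp in any library, and the one at 115422066, whose promoter with 2 CG is printed above, was 58281 and 58621 bp from the nearest E14 peak. In the gene body the peaks covered 2835 and 2329 bp at E14, or 2.19% and 1.80% of the gene, and 0 bp at E17.

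At Cebpa the peaks flanked the start site and left it uncovered. The upstream peaks were 3908 and 2223 bp wide and the downstream peaks 2957 and 1245 bp wide in E14 replicates 1 and 2. The gap between them, which holds both annotated starts and the promoter printed above, measured 2163 and 2192 bp. The downstream peak took in 65.9% and 47.2% of this short gene. The upstream peak of E14 replicate 2 overlaps the annotated gene Gm45091. Within 1000 bp of a start the mean covered length at E14 was 77.5 bp, so most of the Cebpa signal lay farther than that from the start. The CG densities of the E14 peaks overlapped between the genes, with 30.5 per kb in the 4792 bp Pparg peak of replicate 1, 8.96 and 37.8 in the 781 and 2329 bp peaks of replicate 2, and between 13.3 and 44.2 in the 4 Cebpa peaks.

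**Figure D2:**
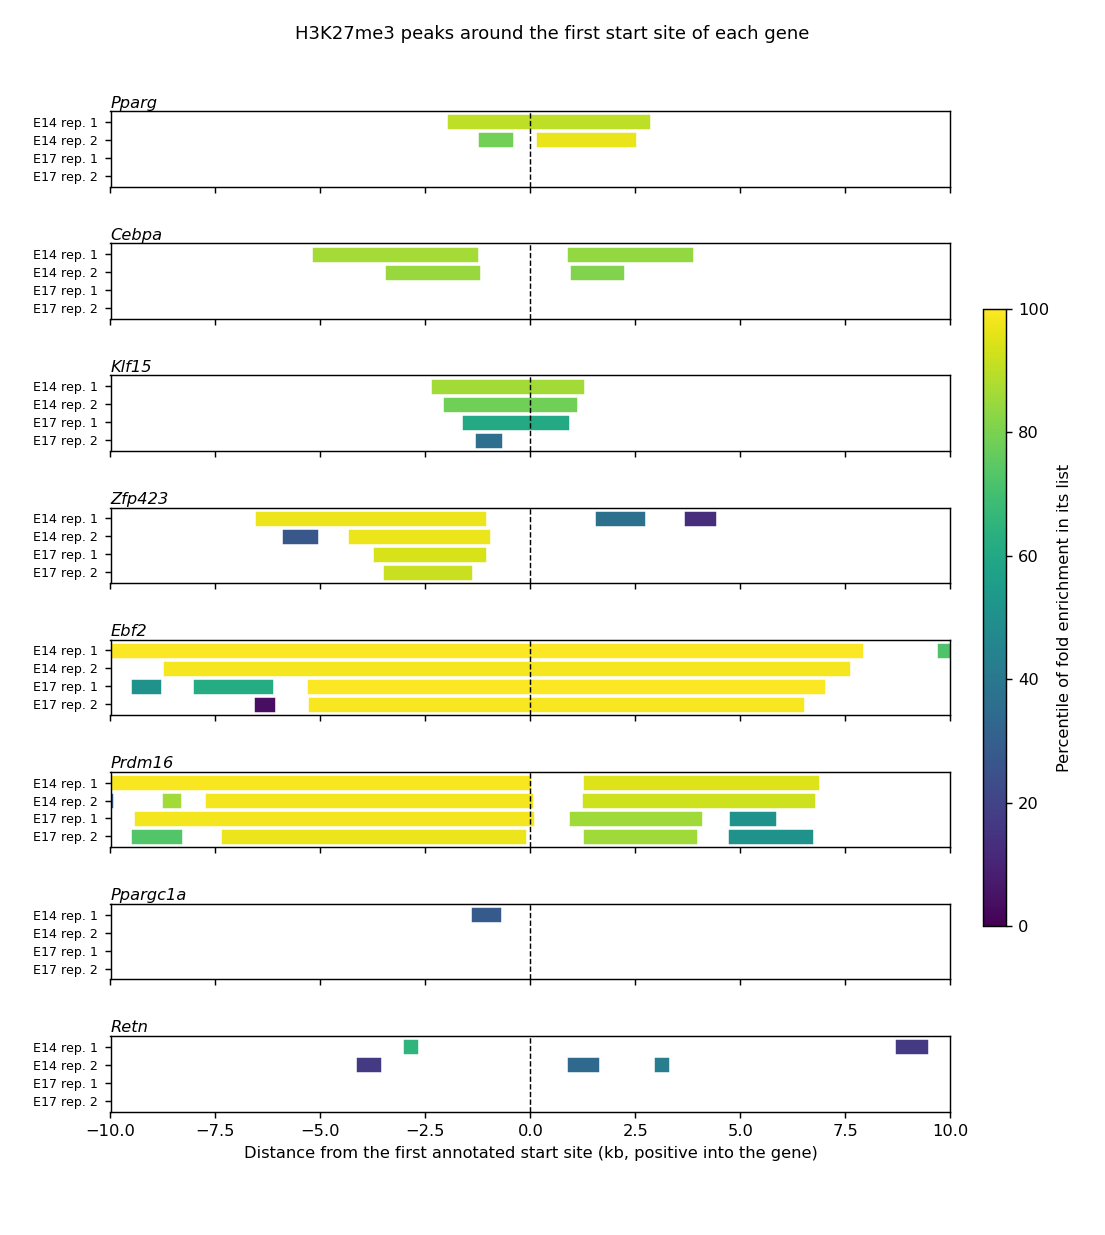
Peaks within 10 kb of the most upstream start site of 8 members (horizontal axis, distance in kb, positive into the gene), with 1 row per library, E14 above E17, and bars coloured by the percentile of fold enrichment within the library's own list. The peaks at Pparg and Cebpa are present in the 2 E14 rows only, Cebpa has a gap of about 2163 bp over its start in E14 replicate 1, and the Retn bars of the 2 E14 rows do not coincide.

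Klf15, a Krüppel-like activator of adipogenesis and of metabolic genes, had a peak in all 4 libraries, with less of it at E17. At Klf15 (chr6:90462576-90475238, plus strand), peaks covered 3596 and 3132 bp near the start sites at E14 and 2513 and 590 bp at E17. The stages did not overlap, and the means were 3364 ± 328 and 1552 ± 1360 bp (SD, n = 2), 53.9% lower at E17. The size of the difference rested on E17 replicate 2, without which it was 25.3%, and without E17 replicate 1 it was 82.5%. A single peak was called in each library, and the starts at 90462576 and 90462674 were inside it in 3 libraries and outside it by 712 and 810 bp in E17 replicate 2. That last peak had a −log10 q of 2.82 where 2 is the threshold, and 11.9 CG per kb where the other 3 had from 50.3 to 63.3, and it lay upstream of the promoter printed above. The rank within each list was lower too, at percentiles 86.3 and 78.3 at E14 and 60.2 and 35.9 at E17. The lists differ in length, so these percentiles are not on a common scale. With only peaks of a −log10 q of at least 5, Klf15 had a peak in both E14 libraries and in neither E17 library. All 4 peaks overlap the annotated gene Gm44117, and that of E17 replicate 2 does not reach into Klf15, so they cannot be assigned to Klf15 alone.

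In all, 5 of the 8 members with any peak near a start site, Pparg, Cebpa, Klf15, Zfp423 and Retn, had less covered length in both E17 libraries than in both E14 libraries, and 0 had more. The background over protein-coding genes with a peak was 63.3% for less and 0.670% for more, and over all annotated genes 58.1% and 0.694%, so the share of members with less was near the background. With windows of 5000 bp Prdm16 joined them, and with windows of 10000 bp Ebf2 joined too, which made 7.

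Zfp423, a zinc finger factor of preadipocyte commitment, had an upstream peak in all 4 libraries and peaks inside the gene at E14 alone. At Zfp423 (chr8:87661810-87959595, minus strand), peaks covered 3744 and 2008 bp near the start sites at E14 and 1930 and 1576 bp at E17. The E17 values lay just under that of E14 replicate 2, and the means were 2876 ± 1228 and 1753 ± 250 bp (SD, n = 2), 39.0% lower at E17. Without E14 replicate 1 the difference was 12.7%. The upstream peak was 5440 and 3318 bp wide at E14 and 2646 and 2056 bp wide at E17, and its near edge lay 1091, 993, 1071 and 1425 bp from the most upstream start. The widths differed mainly at the far edge, which lay at -6530, -4310, -3716 and -3480 bp. In E14 replicate 2 a separate peak of 794 bp lay beyond that edge, from -5881 to -5088 bp, at percentile 27.1. The rank of the upstream peak was high throughout, at percentiles 97.2 and 97.0 at E14 and 93.8 and 91.6 at E17. In the gene body, 4 and 3 peaks covered 4895 and 2804 bp at E14, while 0 peaks were called in either E17 library. Of these, a peak of 3829 and 3118 bp spanned the downstream end of the gene, at percentiles 86.6 and 64.3, and one of 1711 and 1739 bp lay between 122330 and 124409 bp into the gene.

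Ebf2, an early B cell factor that marks brown and beige preadipocytes, carried the broadest domain of the 10. At Ebf2 (chr14:67233292-67430918, plus strand), the peak over the start was 17884 and 16328 bp wide at E14 and 12275 and 11764 bp wide at E17. It filled the whole window of 7353 bp around the 4 starts in every library, so the window could not show the difference in width of the domain. The domain ranked at percentiles 99.6 and 98.8 at E14 and at 99.6 and 99.0 at E17. Along the gene body, peaks covered 64537 and 17866 bp at E14 and 15683 and 9078 bp at E17, or 32.7%, 9.04%, 7.94% and 4.59% of the gene. The difference between the E14 replicates was larger than that between E14 replicate 2 and either E17 library. The E17 mean was 70.0% lower, and 30.7% lower without E14 replicate 1. Peaks of the 4 libraries merged into 33 regions along the gene, of which 5 had a peak in all 4 libraries, 3 in both E14 and neither E17 library, and 18 in E14 replicate 1 alone. The region at chr14:67341699-67349122, inside the gene, held peaks of which the widest measured 6816, 815, 757 and 644 bp in E14 replicates 1 and 2 and E17 replicates 1 and 2. These peaks also overlap the annotated gene 4930438E09Rik, and the peak over the Ebf2 start overlaps Gm20675 in all 4 libraries.

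Prdm16, the zinc finger factor that promotes brown and beige over muscle and white fat identity, had overlapping covered lengths near its start at the stages. At Prdm16 (chr4:154316125-154636873, minus strand), peaks covered 4794 and 4879 bp near the start sites at E14 and 5190 and 4653 bp at E17. The stages overlapped, with means of 4836 ± 60.1 and 4922 ± 380 bp (SD, n = 2). The upstream peak was 12640 and 7764 bp wide at E14 and 9494 and 7219 bp wide at E17 and stopped at or near the start, within 137 bp of it in every library. This peak overlaps the annotated gene Gm13111 in every library. Another peak just inside the gene was 5560 and 5511 bp wide at E14 and 3099 and 2650 bp wide at E17, where a separate peak of 1076 and 1973 bp followed it. The deep edge of this inner peak lay beyond the window, at 6842 and 6756 bp from the start at E14 and 4051 and 3937 bp at E17. The separate E17 peak ended at 5833 and 6694 bp. In E17 replicate 2 the called stretch thus ended near the E14 edge, with a gap inside it. Over the whole gene body, peaks covered 31123 and 20650 bp at E14 and 14412 and 9210 bp at E17, or 9.70%, 6.44%, 4.49% and 2.87% of the gene, and the stages did not overlap. Of 19 merged regions along the gene, 5 had a peak in all 4 libraries and 3 in both E14 and neither E17 library. The region at chr4:154470698-154476723, between 160150 and 166175 bp into the gene, held peaks of which the widest measured 6026 and 4236 bp at E14 and 3123 and 2112 bp at E17.

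**Figure D3:**
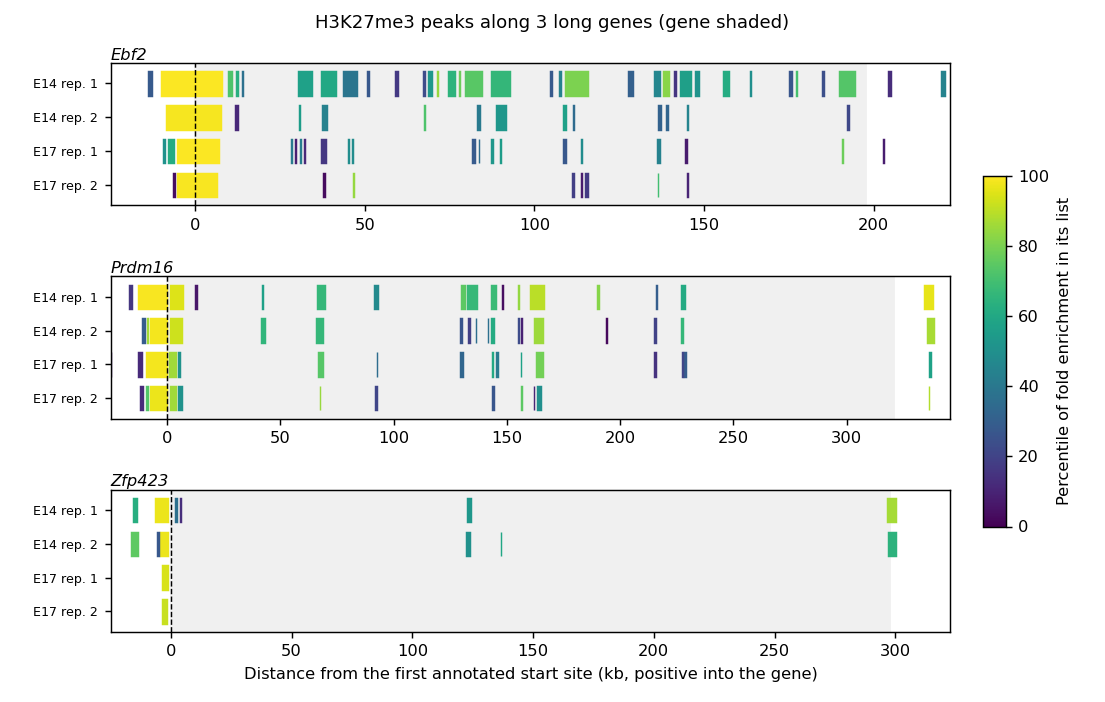
Peaks along Ebf2, Prdm16 and Zfp423 (horizontal axis, distance from the most upstream start site in kb, positive into the gene; the gene is shaded), with 1 row per library and bars coloured by the percentile of fold enrichment within the library's own list and outlined so that narrow peaks remain visible. The domain over the Ebf2 start and that upstream of the Prdm16 start are in all 4 rows, the Ebf2 body is filled mainly in E14 replicate 1, and the Zfp423 body is empty in both E17 rows.

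Ppargc1a, the coactivator of mitochondrial biogenesis, had short peaks near its start sites in E14 replicate 1 alone. At Ppargc1a (chr5:51454250-51567726, minus strand), peaks covered 973 bp near the start sites in E14 replicate 1 and 0 bp in the other 3 libraries. The 973 bp came from 2 peaks, one of 681 bp upstream of the gene and one of 292 bp near the internal starts, at percentiles 28.0 and 18.3. Since E14 replicate 2 had none, the stages overlapped.

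Retn encodes resistin, which mouse adipocytes secrete. At Retn (chr8:3655770-3660110, plus strand), peaks covered 290 and 728 bp near the start at E14 and 0 and 0 bp at E17. Both E14 values were above 0, with a mean of 509 ± 310 bp (SD, n = 2), but the E14 replicates shared 0 bp. In replicate 1 the signal was 1 peak of 307 bp upstream of the gene, from -3017 to -2711 bp of the start, and in replicate 2 it was 2 peaks inside the gene, of 698 and 295 bp, at 903 to 1600 and 2971 to 3265 bp from it. Peaks of the E14 libraries that share no base were found at 1.85% of the protein-coding genes with a peak in both. The strongest Retn peaks stood at percentiles 65.2 and 41.9, and 70.5% of the bases of the 295 bp peak were repeat-masked in the reference. Requiring a base shared by both E14 lists, a setting chosen after seeing the data, left 2 members in the group with a peak at E14 only, Pparg and Cebpa. Retn also left this group with peaks of −log10 q of at least 5, peaks of at least 1000 bp, lists of equal number, windows of 1000 bp, or at least 500 bp covered.

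**Figure D4:**
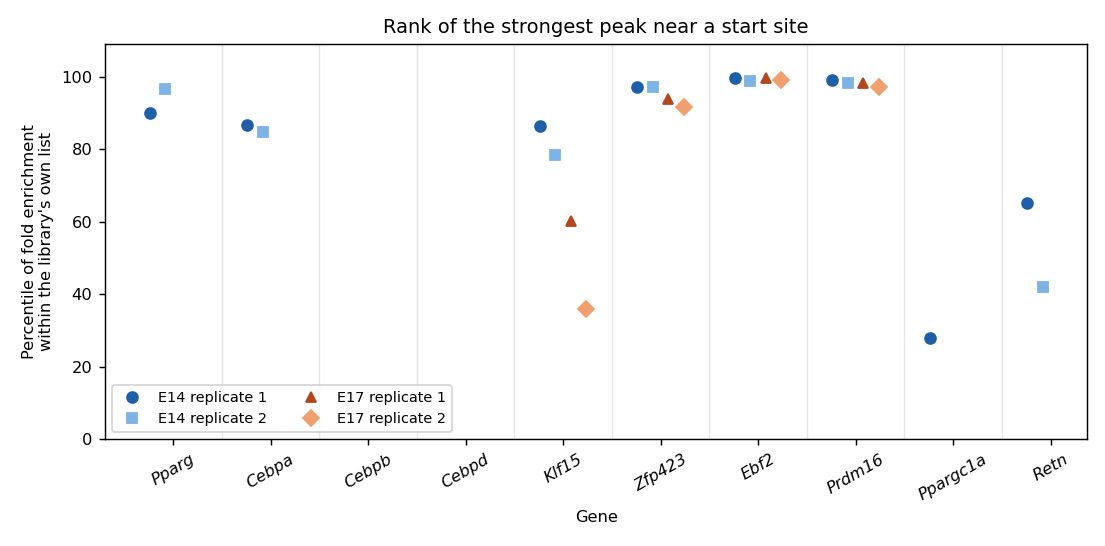
Percentile of fold enrichment, within each library's own list, of the strongest peak in the start windows (vertical axis) of each member (horizontal axis), with 1 symbol per library and none where no peak was called. Ebf2, Prdm16 and Zfp423 stand at percentile 91.6 or above in all 4 libraries, and Klf15 runs from 86.3 in E14 replicate 1 to 35.9 in E17 replicate 2.

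Summed over the 10 members, peaks near the start sites covered 29390 and 24230 bp at E14 and 16986 and 14172 bp at E17. The means were 26810 ± 3649 and 15579 ± 1990 bp (SD, n = 2), 41.9% lower at E17. The stages did not overlap, and a two-sided exact permutation test gave p = 0.333, below which the design cannot go. The same sum over all protein-coding genes was 46.6% lower at E17. In the gene bodies the sum was 106664 and 46964 bp at E14 and 30996 and 18288 bp at E17, 67.9% lower at E17 on average (two-sided exact permutation p = 0.333), beside 54.2% over all protein-coding genes. Ebf2 and Prdm16 together held most of the gene body sum in each library. Without them, a setting added after seeing the data, the start windows held 17243 and 11998 bp at E14 and 4443 and 2166 bp at E17, 77.4% lower, and the gene bodies were 95.4% lower. In the start windows, Ebf2 and Prdm16 had percent decreases of 0 and -1.76, so the 77.4% follows in part from leaving them out. No background was trimmed in the same way. In the bodies, 6 of the 8 members with any body peak, Pparg, Cebpa, Klf15, Zfp423, Ebf2 and Prdm16, had less covered length in both E17 libraries and 0 had more, beside 64.5% and 0.734% of protein-coding genes with a body peak. Over the 4 members with a peak in all libraries, the mean percentile at E14 exceeded that at E17 by a median of 2.71 points, and Klf15 had means of 82.3 and 48.0. With lists of equal number the median was 0.151 points.

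The other genes of the pathway were taken from 5 lists of adipogenesis genes. With the members left out, the lists held 83 different genes, of which 37 had a peak near a start in both E14 libraries, 27 in all 4 libraries and 39 in none. In 5 of the 37 the peak was in neither E17 library, beside the 23.8% of protein-coding genes and 25.1% of all annotated genes with a peak in both E14 libraries. The 5 were Stat5b and Nr1h3, a cytokine-activated factor and the liver X receptor alpha, the acetyltransferase Crebbp, the triglyceride synthase Dgat2 and the adipocyte adrenergic receptor Adrb3. Their covered lengths were 1044 and 773 bp at Stat5b, 2474 and 970 bp at Nr1h3, 1027 and 733 bp at Crebbp, 2327 and 369 bp at Dgat2 and 2833 and 1286 bp at Adrb3 in the E14 libraries, and 0 bp at E17. All 5 were shorter than Pparg and Cebpa in both E14 libraries.

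The counts per list stand beside protein-coding genes at large, of which 74.2% had no peak in any library, 12.0% one in all 4 and 4.61% one in both E14 libraries alone. Among 17 activators and partners of the cascade, 9 had no peak in any library, 3 had one at E14 only (Stat5b, Nr1h3 and Crebbp), and Egr2, a zinc finger factor upstream of Cebpb, had one in all 4. Rxrg, a retinoid X receptor of the family that pairs with Pparg, had peaks over 4746, 3366 and 763 bp in both E14 libraries and E17 replicate 1, and 0 bp in E17 replicate 2. Of 15 inhibitors and progenitor factors, 8 had a peak in all 4 libraries and 0 at E14 only. They included Gata2 and Gata3, zinc finger repressors of adipogenesis, with 16555, 14561, 15284 and 15756 bp at Gata2 and 17651, 17092, 14942 and 16543 bp at Gata3 in E14 replicates 1 and 2 and E17 replicates 1 and 2. The stages overlapped at Gata2 and did not at Gata3. The Wnt ligand genes Wnt6, Wnt10a and Wnt10b, the last an inhibitor of adipogenesis, were among them too, and Wnt6 had 12002 and 10473 bp at E14 and 6934 and 5337 bp at E17.

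Of 18 adipocyte products, 13 had no peak in any library, a share near the background of 74.2%, with Fabp4, Adipoq, Plin1 and Lpl among them, 1 had a peak at E14 only (Dgat2) and 0 in all 4. Lep, which encodes leptin, was the 1 gene of all lists with more covered length in both E17 libraries, with 0 and 358 bp at E14 and 450 and 465 bp at E17, with the 3 peaks at percentiles 12.0, 42.8 and 13.1. Of 19 brown and beige fat genes, 11 had a peak in all 4 libraries, among them Tbx1 with 13344 and 13344 bp at E14 and 12052 and 9436 bp at E17, and 1 at E14 only (Adrb3). Ucp1, the uncoupling protein of brown fat, had 3126, 1793 and 930 bp in both E14 libraries and E17 replicate 1, and 0 bp in E17 replicate 2. Of 16 relatives of the members, 7 had a peak in all 4 libraries and 0 at E14 only. Ppara, the relative of Pparg active in fatty acid oxidation, had 6077 and 5145 bp at E14 and 3504 and 1254 bp at E17, and Ebf3 had 6181 and 5268 bp at E14 and 5453 and 5316 bp at E17.

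**Figure D5:**
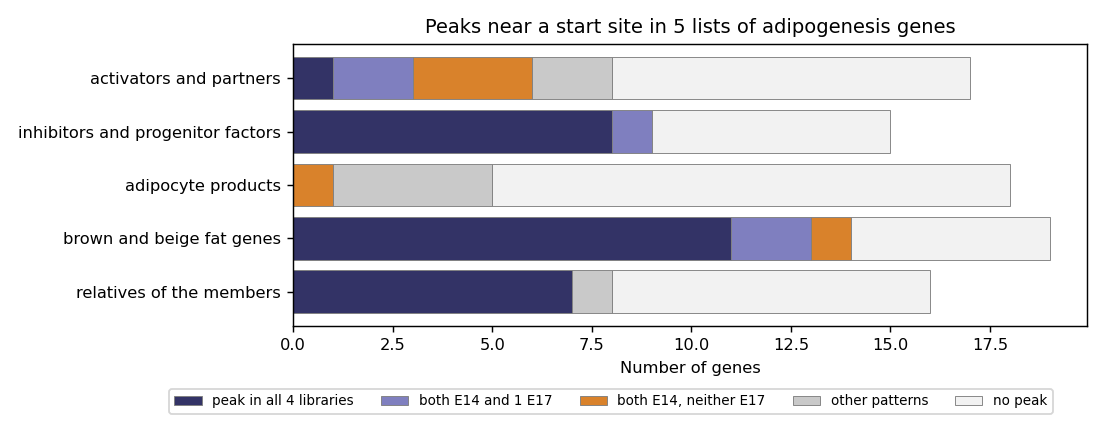
Number of genes (horizontal axis) in each of 5 lists of adipogenesis genes (vertical axis), with the bar divided by the libraries in which a start window held a peak. A peak in all 4 libraries was found at 11 of 19 brown and beige fat genes, 8 of 15 inhibitors and progenitor factors, 7 of 16 relatives, 1 of 17 activators and partners and 0 of 18 adipocyte products.

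Genes most like the members in covered length were found by the sum of absolute differences over the 4 libraries. The nearest to Pparg were Baiap2l2, Padi2 and Il11ra1, at 100, 221 and 373 bp, and the nearest to Cebpa were Tmem229b, Spats1 and Rragb, at 159, 175 and 300 bp. Those nearest to Retn were Lexm, Arc and Slc9a4, at 60, 95 and 96 bp. The pattern of Zfp423 was matched less closely, by Cnmd, Rasgrf2 and Dpf3, at 417, 637 and 740 bp.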

How the data were processed

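H3K27me3 ChIP-seq libraries of dermal fibroblasts, 2 at E14 and 2 at E17 by the labels, were analysed from 1 broad peak list each. According to the submitters' processing notes and the methods, reads were aligned with Bowtie2 2.3.5.1 and handled with SAMtools 1.9 and deepTools 3.5.1 in mm10 (GRCm38), and broad peaks were called with MACS2 2.2.7.1 at a q-value threshold of 0.01. Replicates were not pooled. The control of the peak call and the read filters are not given in the sources used here. Subsampling of E18.5 samples to a read depth shared with the others is stated, and whether it covers these libraries is unclear. In the deposited lists the authors give each peak a fold enrichment, a ratio to the local background, with a −log10 p-value, a −log10 q-value and a display score. The score was not used. Fold enrichment was used only as a rank within a list. Reads are not counted in the lists, which leaves the depth unknown here and allows no intervals.

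Peaks were joined to GENCODE vM21 genes by at least 1 bp within 3000 bp of any start site or in the gene body, and covered bases were counted once. No peak ran past a chromosome end of GRCm38. Sums of 2 libraries against 2 were tested by exact permutation over the 3 possible splits, two-sided, and no test was made per gene. Members and lists were chosen with earlier results of these data known. Named genes were the members, up to 5 genes per list with a peak at E14 only or in all 4 libraries, the 3 genes nearest in covered length to each of Pparg, Cebpa, Retn and Zfp423, and genes overlapped by a member's peak. Rxrg, Ucp1, Lep, the list genes given without a peak, the markers, Ppara, Ebf3 and Wnt6 were mentioned with their values already known. Promoters came from the RefSeq table of GRCm38.p6. Alternatives were stricter −log10 q values (3 and 5), peaks of at least 1000 bp, lists cut to the 7107 top peaks, windows of 1000, 5000 and 10000 bp, start sites of protein-coding transcripts, at least 500 bp covered, peaks within 3000 bp joined, a replicate block and leaving out each library. Scripts ran under Python 3.11.15 with pysam 0.24.0, pandas 2.3.3 and numpy 2.4.6 and were tested on simulated data, where the pattern and length planted at 1395 genes were recovered at 100% of them.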

Additional observations from a re-analysis of the deposited data

How the results depend on the processing

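Pparg and Cebpa had a peak in every E14 library used and in no E17 library used under every setting run. Where a library was left out, patterns were judged on the remaining libraries, so a stage could rest on 1 list. Leaving out each library in turn gave 3 to 4 members with a peak at E14 only. Ppargc1a joined without E14 replicate 2, since its peaks were in E14 replicate 1 alone. The members with a peak in all remaining libraries numbered 4 each time. Sums were lower at E17 by 35.7% to 47.1% in the start windows and by 47.5% to 76.9% in the gene bodies. The members with less covered length at E17 numbered 5 to 6, and the median percentile difference was 1.91 to 3.51 points. List genes with a peak at E14 only numbered 5 to 10, with 8 without E14 replicate 2 and 10 without E17 replicate 1. The members with less covered length numbered 3 in place of 5 with a −log10 q of at least 5, with lists of equal number and with windows of 1000 bp, 4 with peaks of at least 1000 bp, 6 with windows of 5000 bp and 7 with windows of 10000 bp. Those with a peak in all 4 libraries numbered 3 in place of 4 with a −log10 q of at least 3 or 5, peaks of at least 1000 bp and windows of 1000 bp. The median percentile difference of 2.71 points became 1.72 with a −log10 q of at least 3, 5.88 with at least 5, 0.151 with lists of equal number and 0.952 with windows of 1000 bp. The 5 list genes became 8 with peaks of at least 1000 bp, 2 with lists of equal number, 2 with windows of 1000 bp and 9 with windows of 10000 bp. The median was taken over the members with a peak in all libraries, and this set changed with the setting. Klf15 was not in it with a −log10 q of at least 3 or 5, and Zfp423 was not with windows of 1000 bp. These medians thus cover fewer members than the 2.71 points do. Beyond this, the cause of the shifts was not tested. The replicate block, which averages the percent differences within a replicate number, gave 41.9% for the start windows, 66.0% for the gene bodies and 5 members with less covered length. The numbers are shared only as labels, with 2 pairs and a correlation of 0.165 across 5675 genes between the replicate differences of the stages. Of 97 alternative values of the main results, 84 met the tolerance used. It was 1.5 times for counts, direction alone for the summed lengths and the spread between replicates for the percentile. Only the summed lengths and the percentile could reverse in direction, and 0 of their values did. Counts have no direction, so most of the 97 values could not reverse. The summed lengths and the percentile were not run with the minimum of 500 bp, which applies to presence. An absent peak can lie just under the threshold of its list, and no list gives its depth, so none of these values measures how much of the mark was present.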

Other observations

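Several members had peaks in both E14 libraries outside the windows. Upstream of Pparg a peak of 313 and 281 bp began at -16957 and -17022 bp of the start in E14 replicates 1 and 2, at percentiles 65.4 and 72.1, and upstream of Ppargc1a one of 3742 and 259 bp, at percentiles 58.6 and 51.9. Upstream of Zfp423 a peak of 1564 and 2865 bp, at percentiles 62.6 and 75.1, had its near edge at -14230 and -13525 bp of the start. None of these 3 peaks overlapped one in either E17 library, although E17 replicate 2 had a peak of 961 bp farther upstream of Ppargc1a. They were chosen for mention after their positions were seen, and no test was made.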
